A study of Homo sapiens with 20 samples.

Results

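The genes described here are 43 genes of the centromere, the kinetochore and the spindle checkpoint, of 39918 genes counted in total RNA from HCT-116 cells. They were chosen by gene symbol, by matching the Ensembl identifiers of the count table to their GENCODE names, and all 43 had a row and passed the filter on low counts. By role they divide into 15 inner kinetochore genes (the CENP genes of centromeric chromatin and of the constitutive centromere-associated network), 19 genes of the outer kinetochore, the corona and the checkpoint, and 9 genes of CENP-A loading, the chromosomal passenger complex and the shugoshins. CENPE and CENPF carry CENP names but encode corona proteins and were counted with the outer layer.

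HCT-116 is an established human colon cancer line, so every library comes from 1 line, and the labels do not say whether the 4 replicates of a group were separate cultures. p-values therefore reflect only how far these libraries scatter, and that scatter may be technical. There were 5 groups of 4 libraries. MG132 + α-amanitin, MG132 and bortezomib cells were held in 2 mM thymidine for 16 h, released for 7 h and then treated for 3 h, with 20 µM MG132 and 50 µg/ml α-amanitin, with 20 µM MG132 alone, or with 100 nM bortezomib. G2 cells had the same thymidine block and 7 h release and were taken with 0 h of drug. Asynchronous cells were neither synchronised nor treated. MG132 and bortezomib inhibit the proteasome, and α-amanitin inhibits RNA polymerase II. No vehicle group of the same 3 h was used here, so in each comparison of a drug with G2 the drug and the 3 h of further time cannot be told apart.

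The kinetochore is the protein structure that ties a chromosome to spindle microtubules. CENP-A, a variant of histone H3, marks the centromere and is placed there by the chaperone HJURP with the MIS18 proteins. The constitutive network binds this chromatin and carries the MIS12 complex and the NDC80 complex, the latter of which grips microtubules. The checkpoint kinases BUB1 and TTK and the MAD and BUB proteins hold back anaphase until every kinetochore is attached. Many of these genes are transcribed in a cell cycle-dependent way, with most RNA in G2 and mitosis, and several of their proteins are degraded through the proteasome at mitotic exit.

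CENPA and HJURP were the 2 members that passed the test between G2 and asynchronous cells, both close to its threshold. As the members that passed, they are shown here with the letters upstream of their start sites. Each line gives 250 bases before the RefSeq start site on GRCh38.p14, read 5′ to 3′ on the strand of the gene. Capitals mark TTTGAA (the core letters of the cell cycle homology region, CHR) and CCAAT, or their reverse complements TTCAAA and ATTGG. CENPA is shown over chr2:26785806-26786055 on the plus strand and HJURP over chr2:233854536-233854785 on the minus strand.
CENPA: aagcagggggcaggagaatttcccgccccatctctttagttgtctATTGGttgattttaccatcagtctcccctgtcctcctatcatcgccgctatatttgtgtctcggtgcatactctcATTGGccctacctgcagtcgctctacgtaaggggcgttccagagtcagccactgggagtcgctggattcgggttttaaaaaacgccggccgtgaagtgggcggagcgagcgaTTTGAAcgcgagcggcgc
HJURP: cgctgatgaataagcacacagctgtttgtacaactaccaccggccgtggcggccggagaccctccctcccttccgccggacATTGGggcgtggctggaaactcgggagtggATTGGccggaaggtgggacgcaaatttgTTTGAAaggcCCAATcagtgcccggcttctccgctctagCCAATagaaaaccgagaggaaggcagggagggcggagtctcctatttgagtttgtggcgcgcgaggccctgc
TTTGAA lay 18 to 13 bases before the start of CENPA and 111 to 106 bases before that of HJURP. RefSeq promoters, which run from 250 bases before to 50 bases after a start, were found for 35 of the 43 members, with 41 entries. On either strand, TTTGAA was in 39.0% of the 41 entries against 15.2% of 35116 promoters of all genes, CCAAT was in 68.3% against 34.6%, and both were in 29.3% against 5.9%. The 2 motifs do not overlap in the printed lines. A match describes these letters and is not evidence of a bound factor.

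Levels are in CPM, the deposited counts divided by TMM-adjusted library sizes, and a member was called at an adjusted p under 0.05 from edgeR's quasi-likelihood test, adjusted by the Benjamini-Hochberg method over 18959 genes. Such levels are relative within a library, so a loss of RNA shared by most genes would not show as a fold change. Library totals ran from 26797395 to 39710457 counts. Of 8 epithelial colon markers, which check the labelled cell type, 7 averaged at least 1 CPM, with group means of their summed level between 3944 and 5085 CPM. By contrast 10 fibroblast markers summed to group means between 3.83 and 10.8 CPM and 9 leukocyte markers to between 2.83 and 4.86 CPM. In each of these lists 1 marker averaged at least 1 CPM. The summed level of 14 G2/M genes averaged 3258 ± 431 CPM in G2 libraries and 2183 ± 410 CPM in asynchronous libraries (SD, n = 4 each), and the 14 G1/S genes averaged 2007 ± 359 CPM in G2 and 2709 ± 462 CPM in asynchronous libraries. In such bulk samples, fewer cells of a type and less RNA per cell cannot be told apart.

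Per kb of exon, the members spanned a wide range of levels. BIRC5, which encodes survivin of the passenger complex, stood highest, at 83.9 CPM per kb as the mean of the 5 group means, followed by ZWINT, a partner of KNL1, at 52.4 CPM per kb and the checkpoint gene BUB3 at 43.4 CPM per kb. The lowest were MAD1L1, the checkpoint protein that recruits MAD2, at 2.66 CPM per kb, CENPC, the scaffold between centromere and outer kinetochore, at 2.37 CPM per kb, and CENPP of the constitutive network at 0.69 CPM per kb. CENPA, at 15.02 CPM per kb, was 20th of 43 in this order.

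CENPA and HJURP were higher in G2 than in asynchronous cells, and no other member passed the test. CENPA had 56.5, 46.5, 38.5 and 38.1 CPM in the 4 G2 libraries, against 30.9, 21.8, 25.3 and 26.8 CPM in the asynchronous libraries. Every G2 library lay above every asynchronous library. The log2 fold change was 0.78 ± 0.20 (SE), with an adjusted p of 0.0463 by edgeR. HJURP, the chaperone of CENP-A, had 145, 151, 132 and 160 CPM in G2 libraries, against 59.9, 83.1, 93.4 and 107 CPM in asynchronous libraries. These groups did not overlap either, and the log2 fold change was 0.78 ± 0.20 with an adjusted p of 0.0492 by edgeR. The 2 calls were 2 of 43 members (both higher), where 2.09% of the 18959 genes were called, 1.95% higher and 0.148% lower.

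Both calls sat close to the threshold. With each of the 20 libraries left out in turn, CENPA was called in 5 fits (adjusted p 0.0232 to 0.158 by edgeR, log2 fold change 0.65 to 0.87) and HJURP in 3 fits (0.0246 to 0.136, log2 fold change 0.64 to 0.90). CENPA kept its call only without asynchronous replicate 1, MG132 replicates 1, 2 or 4 or MG132 + α-amanitin replicate 4, and HJURP only without MG132 replicates 2 or 4 or bortezomib replicate 4. Both lost it with RLE scaling, mitochondrial mRNA scaling, no filter on low counts, or a fit of the 8 libraries compared alone. With the letter of the sample code as a block, whose meaning the labels do not give, both calls were lost as well (adjusted p 0.134 for CENPA and 0.0935 for HJURP by edgeR). DESeq2 called both, at adjusted p 0.0167 for each.

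**Figure D1:**
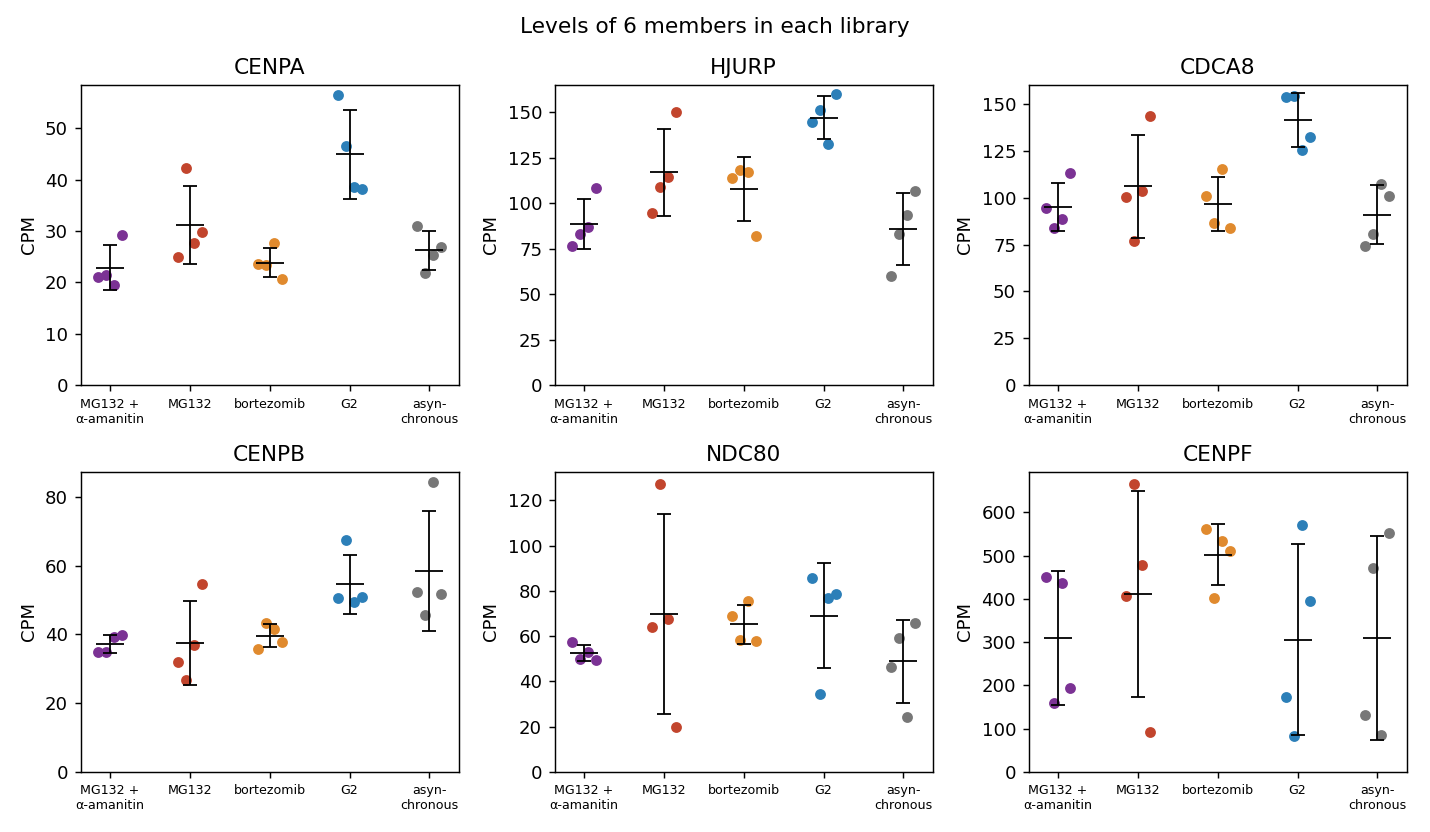
Level of 6 members in each library, in CPM on linear axes that start at 0. Each point is 1 library, the short bar is the group mean and the whiskers are the SD (n = 4 per group). CENPA, HJURP and CDCA8 in G2 libraries lie above all asynchronous libraries, while CENPF in G2 libraries ranges from 81.8 to 571 CPM.

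Behind these came 2 members with smaller adjusted p than the rest. CDCA8, which encodes borealin of the passenger complex, had 154, 154, 126 and 133 CPM in G2 libraries, against 74.6, 80.7, 107 and 101 CPM in asynchronous libraries. The groups did not overlap, but the log2 fold change of 0.64 ± 0.20 had an adjusted p of 0.109 by edgeR. CENPT, a histone-fold protein of the constitutive network, had 38.9, 27.6, 23.5 and 33.7 CPM in G2 libraries, against 24.6, 11.6, 19.9 and 20.5 CPM in asynchronous libraries. Here 1 G2 library lay below an asynchronous one, and the log2 fold change of 0.69 ± 0.21 had an adjusted p of 0.0988. With total library size scaling CENPT was called as well (log2 fold change 0.86, adjusted p 0.0170 by edgeR), so 3 members were called in that setting, CENPA, HJURP and CENPT. That scaling shifted the median gene by 0.16 and called 663 of the 18959 genes higher, against 369 with TMM scaling.
DSN1 of the MIS12 complex went the other way without passing the test, with 25.8, 32.4, 30.6 and 28.8 CPM in G2 libraries, against 39.7, 37.9, 35.0 and 35.1 CPM in asynchronous libraries (log2 fold change -0.33 ± 0.20, adjusted p 0.541 by edgeR). In all, 3 members lay higher without overlap (CENPA, HJURP and CDCA8), where 5.75% of all genes did, and 1 lower (DSN1), where 1.89% did.

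By layer the members lay on both sides of 0 in G2. The median log2 fold change of the 15 inner genes was -0.05 (range -0.51 to 0.78), that of the 19 outer and checkpoint genes 0.14 (range -0.33 to 0.61) and that of the 9 others 0.29 (range -0.34 to 0.78), beside -0.04 over all genes tested. With total library size and mitochondrial mRNA scaling the inner median was 0.11 and 0.08, beside medians of 0.12 and 0.025 over all genes. The 13 genes of the constitutive network, which CENP-A chromatin supports, had a median of -0.05. Among the outer genes, NDC80, which encodes a microtubule-binding subunit, had 85.6, 34.5, 76.9 and 78.8 CPM in G2 libraries, against 46.4, 59.0, 24.1 and 65.7 CPM in asynchronous libraries (log2 fold change 0.50 ± 0.39, adjusted p 0.697 by edgeR). Those groups overlapped through G2 replicate 2. The checkpoint kinase BUB1 gave 0.42 ± 0.36 (adjusted p 0.736), MAD2L1, the MAD2 protein, 0.28 ± 0.42 (0.886), the kinesin CENPE 0.36 ± 0.58 (0.899) and CENPF -0.02 ± 0.62 (0.996). The passenger kinase AURKB gave 0.46 ± 0.21 (0.355), with 151, 117, 94.7 and 108 CPM in G2 libraries, against 100, 61.1, 99.5 and 81.8 CPM in asynchronous libraries.

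Of 14 G2/M genes, 3 were called, all higher in G2: KIF20A (log2 fold change 0.99), CDC25C (1.01) and AURKA (0.84). Of 14 G1/S genes, E2F1 was called, lower in G2 (-0.90). None of 19 further kinetochore genes and none of 20 genes of the anaphase-promoting complex and separase were called in this comparison. Over all genes, 1.95% were called higher and 0.148% lower, so few or no calls would be usual for lists of this size.

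**Figure D2:**
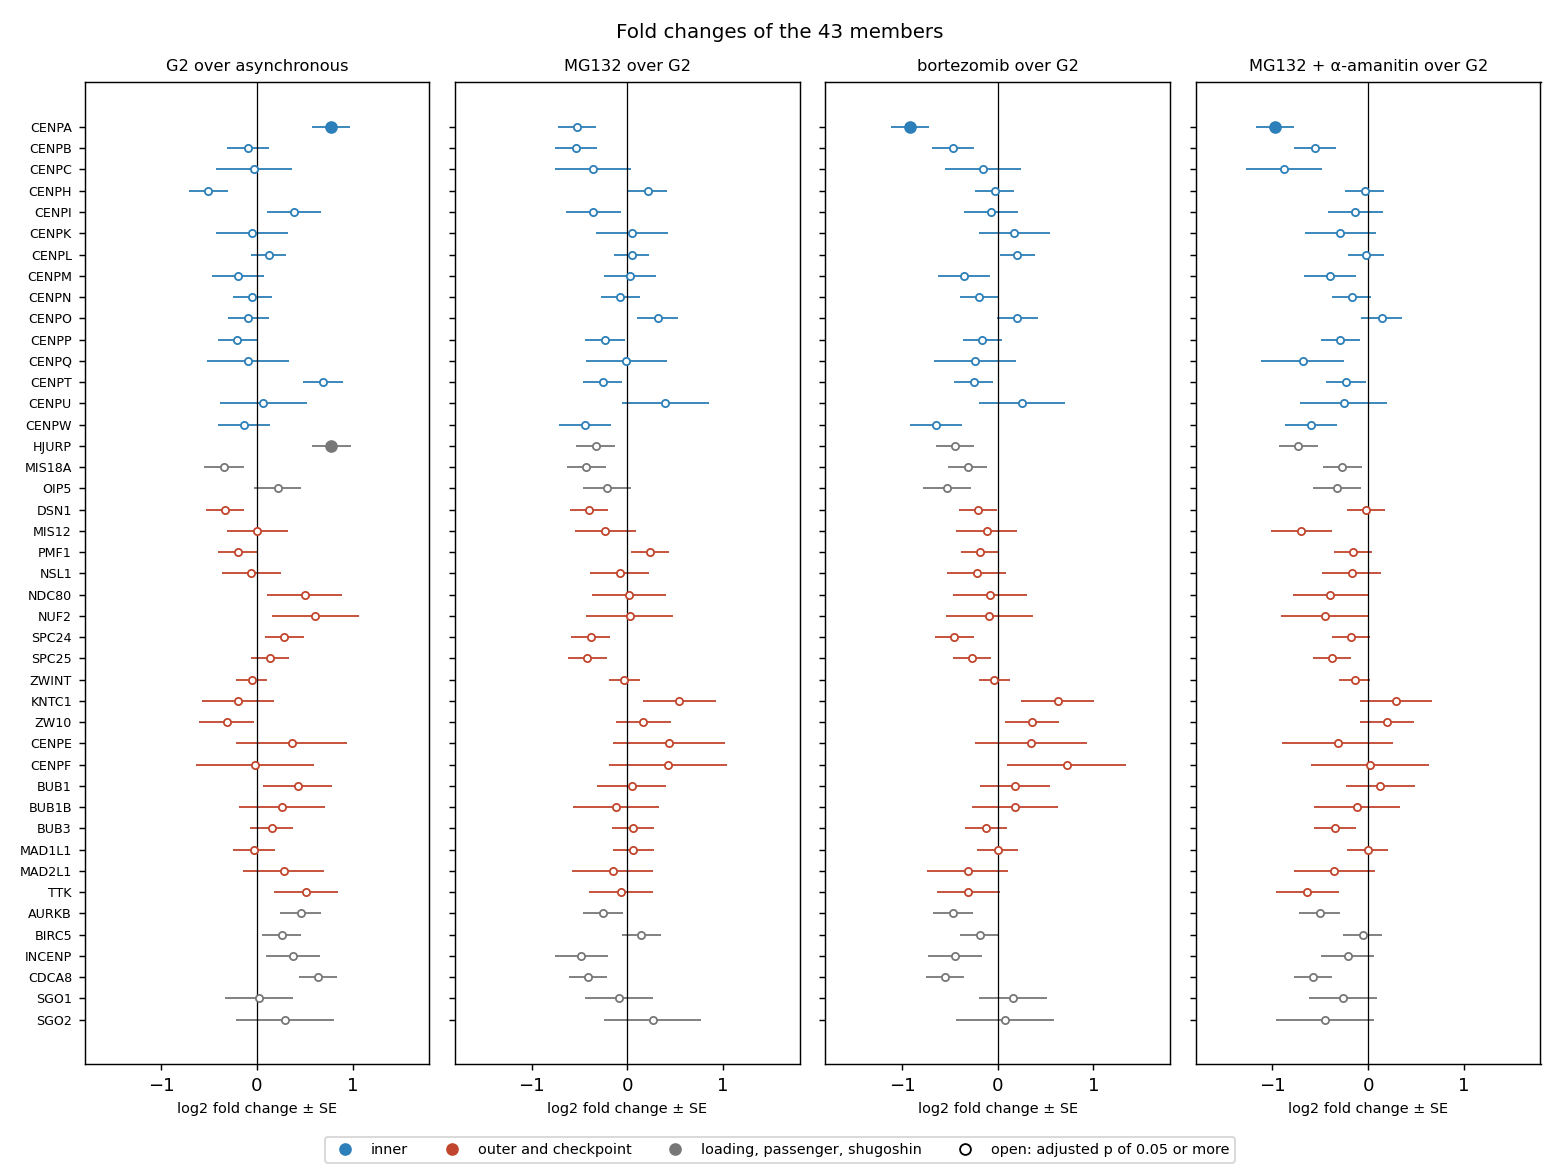
log2 fold change of each of the 43 members, with its SE, in 4 comparisons, the first named group over the second. Filled points have an adjusted p under 0.05 by edgeR: CENPA and HJURP for G2 over asynchronous, and CENPA for bortezomib and for MG132 + α-amanitin over G2.

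Under the drugs, CENPA was again the member that moved most clearly, and it was lower. CENPA had 21.1, 21.5, 19.6 and 29.2 CPM in MG132 + α-amanitin libraries, 24.8, 42.2, 27.7 and 29.8 CPM in MG132 libraries and 23.6, 23.4, 27.6 and 20.7 CPM in bortezomib libraries, against the G2 values of 38.1 to 56.5 CPM given above. The MG132 + α-amanitin and the bortezomib libraries all lay below every G2 library, whereas MG132 replicate 2 lay within the G2 range. The log2 fold change over G2 was -0.97 ± 0.20 for MG132 + α-amanitin (adjusted p 0.00785 by edgeR), -0.53 ± 0.20 for MG132 (0.225) and -0.92 ± 0.20 for bortezomib (0.0271). These comparisons, and that of G2 with asynchronous cells, share the same 4 G2 libraries. Beside them, SLC35F6, whose exons overlap those of CENPA on the same strand, had log2 fold changes of -0.02 for MG132 + α-amanitin over G2, -0.09 for bortezomib over G2 and -0.20 for G2 over asynchronous, with adjusted p of 0.852 in the last.

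The CENPA call for MG132 + α-amanitin over G2 held in all 20 fits with 1 library left out (adjusted p 0.00357 to 0.0409 by edgeR) and was lost with the sample code letter as a block (0.0737). The call for bortezomib held in 15 of 20 and was lost without G2 replicates 1 or 2 (0.117 and 0.0872) and without bortezomib replicates 1, 2 or 4 (0.105, 0.0848 and 0.105), and also with mitochondrial mRNA scaling (0.0816) and with the code letter block (0.611). Among bortezomib libraries only replicate 1 shares its letter, O, with G2 libraries, so that block is largely confounded with the comparison of bortezomib and G2.

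With MG132 alone, 0 of the 43 members were called against G2, where 2.08% of all genes were called. An unadjusted p under 0.05 by edgeR was found for 5 of the 43 members and for 2238 of the 18959 genes. DESeq2 also called 0. No member separated the 2 groups completely, where 2.07% of all genes lay higher and 4.45% lower without overlap. CENPB, which binds a motif in alpha satellite DNA, had 32.0, 26.7, 36.9 and 54.8 CPM in MG132 libraries, against 50.7, 67.5, 49.6 and 51.0 CPM in G2 libraries. MG132 replicate 4 alone overlapped the G2 range, and the log2 fold change of -0.54 ± 0.22 had an adjusted p of 0.291, which was 0.0357 (log2 fold change -0.78) without that library. The library removed was the overlapping one, so a smaller p follows in part from that choice. In that fit 355 of 19374 genes were called lower, against 204 of 18959 with all libraries. CDCA8 gave -0.41 ± 0.20 (adjusted p 0.419) and MIS18A, a loading factor of CENP-A, -0.43 ± 0.20 (0.422). The fixed examples of the outer layer lay on both sides of 0 with wide errors: CENPE 0.44 ± 0.58, CENPF 0.43 ± 0.62, NDC80 0.02 ± 0.39, BUB1 0.05 ± 0.36 and MAD2L1 -0.15 ± 0.42, each with an adjusted p of 0.904 or more. AURKB gave -0.25 ± 0.21 (0.785). The median log2 fold change was -0.07 in the inner layer, 0.02 in the outer and checkpoint genes and -0.25 in the 9 others, beside -0.03 over all genes. With total library size and mitochondrial mRNA scaling the outer and checkpoint median was -0.14 and -0.30, while all genes together shifted by a median of -0.12 and -0.26.

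With bortezomib, 1 of the 43 members was called against G2, CENPA, lower, where 1.15% of all genes were called and 0.659% were called lower. A further 3 members lay below G2 without overlap (CENPB, HJURP and CDCA8), so 4 in all, where 7.55% of all genes did, and 2 lay above (KNTC1 and ZW10, both of the RZZ complex that recruits dynein to kinetochores), where 7.66% did. HJURP had 114, 118, 117 and 81.9 CPM in bortezomib libraries, against 132 to 160 CPM in G2 libraries (log2 fold change -0.45 ± 0.20, adjusted p 0.310 by edgeR). KNTC1 had 128, 118, 101 and 121 CPM in bortezomib libraries, against 75.5, 36.2, 99.9 and 91.8 CPM in G2 libraries (0.63 ± 0.38, adjusted p 0.465). ZW10 had 47.6, 41.8, 50.9 and 43.1 CPM in bortezomib libraries, against 27.4, 34.4, 40.4 and 41.0 CPM in G2 libraries. For KNTC1 and ZW10 the gap to the highest G2 library was narrow, and neither passed the test. CDCA8 gave -0.55 ± 0.20 (0.186), CENPW, a small histone-fold partner of CENPT, -0.64 ± 0.27 (0.277), SPC24 of the NDC80 complex -0.46 ± 0.20 (0.305) and AURKB -0.47 ± 0.21 (0.312). Other members lay above 0 without passing the test: CENPF, with the highest log2 fold change of the 43, gave 0.72 ± 0.62 (0.587), CENPE 0.35 ± 0.58 (0.786) and BUB1 0.18 ± 0.36 (0.823), which was -0.030 with mitochondrial mRNA scaling. NDC80 gave -0.081 ± 0.39 (0.931) and MAD2L1 -0.31 ± 0.42 (0.731). In 31 of 43 members the log2 fold change was negative, with a median of -0.16. This count was 24 without G2 replicate 1 (median -0.094). It was 22 (median -0.012) with the code letter block, which is largely confounded with this comparison. By layer the medians were -0.16 for the inner layer, -0.09 for the outer and checkpoint genes and -0.44 for the 9 others, beside -0.01 over all genes.

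Set directly against each other, MG132 and bortezomib differed in 0 of the 43 members, where 0.0369% of all genes were called. An unadjusted p under 0.05 by edgeR was found for 768 of the 18959 genes and for 1 member, PMF1 of the MIS12 complex. DESeq2 also called 0. No member separated the groups, where 1.74% of all genes lay higher and 1.42% lower without overlap. PMF1 had 22.2, 30.9, 29.01 and 34.3 CPM in MG132 libraries, against 23.6, 19.2, 24.8 and 19.2 CPM in bortezomib libraries (log2 fold change 0.42 ± 0.20, adjusted p 0.983). CENPA gave 0.39 ± 0.20 (adjusted p 0.983), so the CENPA call in bortezomib and its absence in MG132 did not amount to a difference between the drugs that passed the test. Also without passing it, CENPM of the constitutive network gave 0.39 ± 0.27, BIRC5 0.34 ± 0.21 and AURKB 0.22 ± 0.21 (adjusted p 0.983 each by edgeR). The outer and checkpoint examples lay closer to 0 than their errors, with CENPF at -0.29 ± 0.62, BUB1 at -0.13 ± 0.36, CENPE at 0.092 ± 0.58, NDC80 at 0.097 ± 0.39 and MAD2L1 at 0.16 ± 0.42.

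With α-amanitin added to MG132, 0 of the 43 members were called against MG132 alone, where 2.19% of all genes were called. These levels are relative, so the absence of calls does not exclude a loss shared by most genes. An unadjusted p under 0.05 by edgeR was found for 2368 of the 18959 genes and for 1 member, CENPA (log2 fold change -0.44 ± 0.20, adjusted p 0.346). DESeq2 also called 0. No member separated these groups either, where 4.82% of all genes lay higher and 4.01% lower without overlap. The median log2 fold change of the 43 was -0.18, beside 0.02 over all genes, and 33 of 43 were negative with TMM scaling, but 22 of 43 with total library size scaling, which shifted the median gene by 0.17. With RLE scaling 35 of 43 were negative. With mitochondrial mRNA scaling 38 of 43 were negative, with a median of -0.31 beside -0.12 over all genes. Relative to the median of all genes, 34 of 43 lay below it under each of these scalings. Without MG132 replicate 2 the median was -0.074 and 28 of 43 were negative. HJURP gave -0.40 ± 0.20 (0.434), DSN1 0.38 ± 0.20 (0.457), CENPE -0.76 ± 0.59 (0.669), NDC80 -0.41 ± 0.39 (0.749) and BUB1 0.08 ± 0.36 (0.961). PMF1 gave -0.40 ± 0.20 (0.434), AURKB -0.25 ± 0.21 (0.699), CENPF -0.41 ± 0.62 (0.861) and MAD2L1 -0.20 ± 0.42 (0.907).

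In MG132 + α-amanitin cells, 1 of 43 members was called against G2, CENPA, lower, where 3.35% of all genes were called and 2.32% were called lower. Lower without overlap were 6 members (CENPA, CENPB, HJURP, MIS12, SPC25 and CDCA8), where 7.24% of all genes were, and 0 were higher, where 7.76% of all genes were. HJURP had 76.5, 82.8, 87.0 and 108 CPM in MG132 + α-amanitin libraries, against 132 to 160 CPM in G2 libraries. The groups did not overlap, and the log2 fold change of -0.73 ± 0.20 had an adjusted p of 0.0512, just outside the threshold. HJURP was called by DESeq2 (adjusted p 0.0183), in the fit of the compared groups alone (0.0271 by edgeR) and in 6 of 20 fits with 1 library left out (0.0255 to 0.194), those without asynchronous replicates 1 or 4, MG132 replicates 2 or 4, bortezomib replicate 4 or MG132 + α-amanitin replicate 4. Scaling by library total gave 0.190 and the code letter block 0.216. CENPB had 34.9, 34.9, 39.2 and 39.9 CPM in MG132 + α-amanitin libraries, against 49.6 to 67.5 CPM in G2 libraries (-0.56 ± 0.22, adjusted p 0.217 by edgeR). CDCA8 had 94.5, 83.7, 88.7 and 113 CPM in MG132 + α-amanitin libraries, against 126 to 154 CPM in G2 libraries (-0.58 ± 0.20, 0.136). Negative values were seen for 38 of 43 members, with a median of -0.27 beside -0.00395 over all genes, and the medians were -0.29 in the inner layer, -0.17 in the outer and checkpoint genes and -0.32 in the 9 others. With mitochondrial mRNA scaling, which shifted the median gene by -0.41, 43 of 43 were negative and 37 lay below that median. Among the fixed examples, AURKB gave -0.51 ± 0.21 (0.251), CENPE -0.32 ± 0.58 (0.881), CENPF 0.02 ± 0.62 (0.996), NDC80 -0.39 ± 0.39 (0.734), BUB1 0.13 ± 0.36 (0.930) and MAD2L1 -0.35 ± 0.42 (0.794).

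Related genes were tested in the same comparison, where 2.32% of all genes were called lower. Of 19 further kinetochore genes 1 was called, MAD2L1BP, which counteracts MAD2 and was lower (log2 fold change -0.82). Of 20 genes of the anaphase-promoting complex and separase 2 were called, both lower, the inhibitor FBXO5 (-1.21) and the ubiquitin-conjugating enzyme UBE2C (-1.02). None of the 14 G2/M genes were called, and their summed level averaged 2632 ± 136 CPM in MG132 + α-amanitin libraries, 3167 ± 1113 CPM in MG132 libraries, 3077 ± 307 CPM in bortezomib libraries and 3258 ± 431 CPM in G2 libraries. In MG132 cells against G2, 1 of the 14 G1/S genes was called, CDC6, higher (0.83), where 191 of the 18959 genes were called higher.

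**Figure D3:**
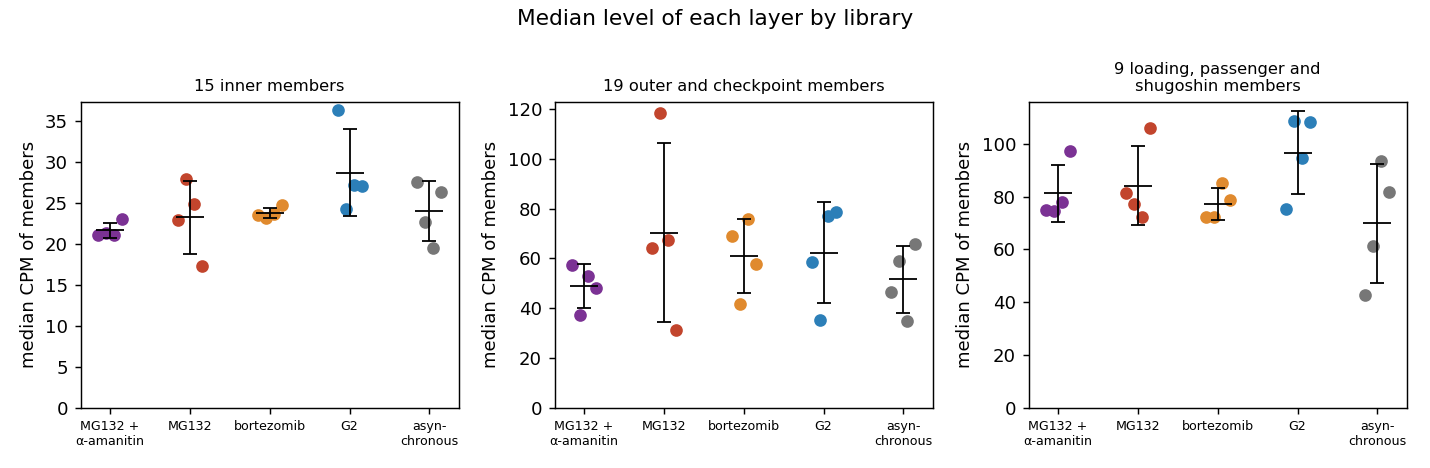
Median level of the members of each layer in each library, in CPM on linear axes that start at 0. Each point is 1 library, the short bar is the group mean and the whiskers are the SD (n = 4 per group). The 4 MG132 libraries spread from 31.2 to 118 CPM in the outer and checkpoint genes.

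The members with AT-rich transcripts varied most between replicates. Across the 43 members, the GC content of the longest transcript and the median within-group coefficient of variation had a Spearman rho of -0.69 and a Pearson r of -0.59, a description over genes that share the same 20 libraries. The 14 members of lowest GC content (32.9 to 40.78%) had a median coefficient of variation of 37.4%, and the 14 of highest GC content (49.1 to 66.2%) one of 16.8%. CENPF, which at 40.83% lies just outside those 14, had the highest coefficient of variation of the 43 (57.9%), with 407, 665, 478 and 93.1 CPM in MG132 libraries and 172, 81.8, 571 and 396 CPM in G2 libraries. Over all genes, the deviation of each gene from its mean over 20 libraries was fitted on GC content and log2 transcript length together. The GC slope was steepest in 4 libraries. Per 10 percentage points it was -0.34 log2 units in MG132 replicate 2, 0.56 in MG132 replicate 4, 0.27 in G2 replicate 2 and 0.39 in asynchronous replicate 3. Its size was at most 0.19 in the others. In those 4 libraries the 14 AT-rich members deviated from their mean over 20 libraries by a median of 1.10, -1.36, -0.59 and -0.97 log2 units, in the same order. How much GC content adds to any one difference was not tested.

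**Figure D4:**
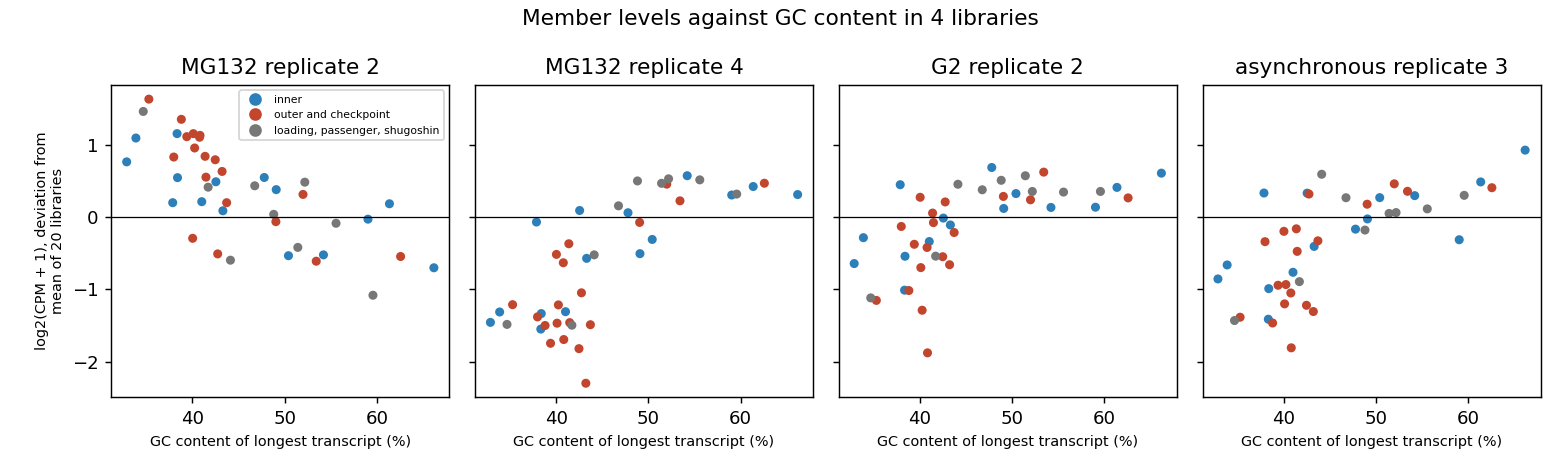
Deviation of each of the 43 members from its mean over the 20 libraries, on a log2(CPM + 1) scale, against the GC content of its longest transcript, in the 4 libraries with the steepest GC slope. AT-rich members are high in MG132 replicate 2 and low in the other libraries drawn.

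Leaving out those 4 libraries changed the result for MG132 + α-amanitin over G2 most. It then called 9 members, all lower, where 3.27% of genes were called lower: CENPA (log2 fold change -0.98), CENPB (-0.46), CENPC (-1.12), HJURP (-0.74), MIS12 (-0.83), NDC80 (-0.64), NUF2 (-0.75), TTK (-0.85) and CDCA8 (-0.56). They include members of the inner layer, the loading factors, the outer kinetochore, the checkpoint and the passenger complex. Of the libraries left out, only G2 replicate 2 belongs to this comparison, and the others act through the shared estimate of the spread. Without G2 replicate 2 alone, CENPA was the only member called (adjusted p 0.0268 by edgeR). AT-rich members deviated most in the libraries left out, so the added calls are not independent of that choice. CENPC had 15.3, 11.6, 14.5 and 10.9 CPM in MG132 + α-amanitin libraries, against 20.4, 33.4 and 29.9 CPM in the 3 G2 libraries kept and 12.6 CPM in G2 replicate 2. For G2 over asynchronous the fit without the 4 libraries called CENPA, HJURP and CDCA8, all higher, where 3.53% of genes were called higher. For bortezomib over G2 that fit called CENPA, lower, where 1.25% of genes were called lower.

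For 3 members the count may include reads of another gene on the same strand, since CENPA shares exons with SLC35F6, PMF1 with PMF1-BGLAP and BUB1B with BUB1B-PAK6. Exons of 14 members overlap a gene on the opposite strand, and the counting strand is not given in the sources used here. HJURP lies across from MROH2A, which averaged at most 0.06 CPM in any group. Named pseudogenes exist for 6 members (CENPC, CENPI, CENPU, BUB1, BUB3 and SGO1), and how reads with several alignments were counted is not given either. CENPA lies at chr2:26764289-26801067 on the plus strand and HJURP at chr2:233833416-233854566 on the minus strand of GRCh38, in GENCODE release 29.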

How the data were processed

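Stranded libraries were prepared from rRNA-depleted total RNA, per the labels' protocols. Raw, unnormalised counts were deposited in 1 table by the authors, over 41092 features, of which 39918 are genes and 1174 are repeat subfamilies, in 20 columns that each matched 1 sample. FastQC, cutadapt 1.18, STAR and hg38 appear in the submitters' processing notes, with no roles. No source used here gives the counting tool, annotation release or strand setting. GENCODE release 29 gave positions for 38661 genes, and 39900 had a name.

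The counts were fitted in R 4.3.3 with edgeR 4.0.16 (filterByExpr, TMM, robust glmQLFit and glmQLFTest), with 1 mean per group over all 20 libraries and 15 residual degrees of freedom, and the biological coefficient of variation was 33.3%. p-values were adjusted by the Benjamini-Hochberg method over 18959 genes. Alternatives were no filter, scaling by RLE, by 13 mitochondrial mRNAs or by library total, DESeq2 1.42.0, the compared groups alone, the replicate number or the sample code letter as a block, leaving out 4 libraries with steep GC slopes, and leaving out each library. On simulated counts for G2 against asynchronous (18612 genes tested, 200 changed), 36% of 2-fold and 88% of 4-fold changes were recovered, with 10 false calls, so a 2-fold change can be missed at this depth and spread.

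The 43 members, the gene lists and the alternatives were chosen with earlier results of these data known. Named in each comparison were the called members, at least the 4 of smallest p, and CENPA, CENPE, CENPF, NDC80, BUB1, MAD2L1 and AURKB. Members that separate the groups, CENPC and the members called without the 4 libraries were named after their values were seen. Replicates of a group differed beyond sampling noise in all 30 pairs (chi-square per degree of freedom 9.12 to 507), so none was treated as a duplicate. Gene length is the union of GENCODE exons, and sequences are from RefSeq.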

Additional observations from a re-analysis of the deposited data

Results flagged for a closer look

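Of 215 groups of 4 libraries (43 members in 5 groups), 11 had 1 library far from the other 3, by Dixon's 95% criterion on the gap as a share of the group's range. Chance alone gives about 1 in 20 groups. In MG132 + α-amanitin replicate 4, PMF1 (25.8 CPM) and AURKB (103 CPM) stood high. In MG132 replicate 4, ZW10 (13.6 CPM) and SGO1 (5.71 CPM), a shugoshin that protects cohesion, stood low. In bortezomib replicate 4, HJURP (81.9 CPM) stood low. In G2 replicate 2, NDC80 (34.5 CPM) and TTK (62.0 CPM) stood low and CENPB (67.5 CPM) high, and in G2 replicate 1 CENPQ (27.04 CPM) stood high. In asynchronous libraries, CENPN (111 CPM) stood high in replicate 1 and MIS18A (31.4 CPM) low in replicate 2. MG132 replicate 4 and G2 replicate 2 are among the 4 libraries with steep GC slopes, and the part of GC content in these values was not tested.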

How the results depend on the processing

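Between G2 and asynchronous cells the count of called members was 2, and it was 0 with RLE scaling, mitochondrial mRNA scaling, no filter, the compared groups alone, the replicate block and the code letter block, and 3 with total library size scaling. For bortezomib over G2 it was 1, and 0 with mitochondrial mRNA scaling, the replicate block and the code letter block. For MG132 + α-amanitin over G2 it was 1, but 2 with DESeq2 and with the compared groups alone, 0 with the code letter block, and 9 without the 4 libraries with steep GC slopes. With 1 library left out, the counts ran from 0 to 3 (G2 over asynchronous), 0 to 1 (MG132 over G2), 0 to 1 (bortezomib over G2) and 1 to 2 (MG132 + α-amanitin over G2). The cause was not tested.

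Replicate numbers did not pair the samples. Deviations of same-numbered samples correlated by -0.05 on average (-0.61 to 0.61, 40 pairs). With the replicate block, CENPA had an adjusted p of 0.0918 for G2 over asynchronous, 0.0715 for bortezomib over G2 and 0.0236 for MG132 + α-amanitin over G2 by edgeR, and HJURP one of 0.0619 for G2 over asynchronous.

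Signs were followed only for the members named in each comparison as called, as smallest in p or as fixed examples. Other members changed sign too and are not listed. The sign changes of the named members, all in log2 fold changes that no setting called, were as follows. With total library size scaling, CENPF gave 0.12 (G2 over asynchronous), NDC80 -0.14 and BUB1 -0.12 (MG132 over G2), CENPE -0.033 and NDC80 -0.028 (MG132 over bortezomib) and MAD2L1 0.023 (MG132 + α-amanitin over MG132). With mitochondrial mRNA scaling, NDC80 gave -0.30 and BUB1 -0.25 (MG132 over G2), BUB1 -0.030 (bortezomib over G2), BUB1 -0.035 (MG132 + α-amanitin over MG132), and CENPF -0.37 and BUB1 -0.29 (MG132 + α-amanitin over G2). With no filter, CENPF gave 0.015 (G2 over asynchronous) and -0.0039 (MG132 + α-amanitin over G2). With the replicate block, NDC80 gave -0.045 and BUB1 -0.0070 (MG132 over G2). With the code letter block, CENPF gave 0.98 (G2 over asynchronous), NDC80 -0.18 and BUB1 -0.11 (MG132 over G2), MAD2L1 0.021 (bortezomib over G2), CENPE -0.044, NDC80 -0.092 and MAD2L1 -0.29 (MG132 over bortezomib), and CENPF -0.65 and BUB1 -0.089 (MG132 + α-amanitin over G2). Without the 4 libraries, CENPE gave -0.080, NDC80 -0.32 and BUB1 -0.030 (MG132 over G2), BUB1 -0.016 (bortezomib over G2), CENPE -0.12 (MG132 over bortezomib), BUB1 -0.034 (MG132 + α-amanitin over MG132), and CENPF -0.32 and BUB1 -0.063 (MG132 + α-amanitin over G2). With CENPE and CENPF counted as inner, the median of outer and checkpoint genes for MG132 over G2 was -0.032.

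Among the same named members, with 1 library left out, ranges crossed 0 for CENPF (-0.52 to 0.41) and MAD2L1 (-0.13 to 0.53) for G2 over asynchronous. For MG132 over G2 they did for CENPE (-0.15 to 0.75), NDC80 (-0.45 to 0.32), BUB1 (-0.26 to 0.37) and MAD2L1 (-0.68 to 0.26), and for bortezomib over G2 for NDC80 (-0.30 to 0.039) and MAD2L1 (-0.49 to 0.10). For MG132 over bortezomib they did for CENPE (-0.50 to 0.41), CENPF (-0.62 to 0.040), NDC80 (-0.37 to 0.41), BUB1 (-0.44 to 0.19) and MAD2L1 (-0.37 to 0.48). For MG132 + α-amanitin over MG132 they did for NDC80 (-0.72 to 0.052), BUB1 (-0.24 to 0.39) and MAD2L1 (-0.52 to 0.32), and for MG132 + α-amanitin over G2 for CENPF (-0.30 to 0.51), BUB1 (-0.039 to 0.20) and MAD2L1 (-0.53 to 0.056).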

Other observations

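Alpha satellite repeats, the DNA on which human centromeres form, were counted as 1 subfamily whose reads can align to many places. ALR/Alpha had 37.9, 16.7, 44.4 and 20.7 CPM in MG132 + α-amanitin libraries, 46.1, 109, 36.1 and 17.2 CPM in MG132 libraries, 58.7, 27.7, 36.7 and 104 CPM in bortezomib libraries, 16.7, 12.1, 34.5 and 32.3 CPM in G2 libraries and 9.72, 34.4, 9.72 and 19.2 CPM in asynchronous libraries. Every group overlapped every other. The log2 fold change over G2 was 0.32 ± 0.54 for MG132 + α-amanitin (adjusted p 0.716 by edgeR, over the repeat subfamilies tested), 1.12 ± 0.55 for MG132 (0.997) and 1.25 ± 0.55 for bortezomib (0.108).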
